A study of Cyanidioschyzon merolae strain 10D with 12 samples.

Results

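The transcripts that had changed 3 h after a fall in CO2 were measured in wild-type Cyanidioschyzon merolae strain 10D, a unicellular red alga of hot, acidic springs. The comparison set the 3 libraries of the group LC 3 h (low CO2, 0.04% CO2 in the aeration gas for 3 h) against the 3 libraries of the group HC 0 h (high CO2, 5% CO2, taken just before the shift). These are 6 of the 12 libraries of a time course that went on to 24 h at low CO2 (LC 24 h) and to a 24 h recovery at high CO2, and they were chosen by their labelled group alone. Cultures grew in batch at 30 °C in light that was not changed. No culture was kept at 5% CO2 up to 3 h, so the part of CO2 and that of the added time in culture cannot be told apart.

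Algae fix CO2 with Rubisco, an enzyme that also reacts with oxygen. When CO2 becomes scarce the oxygen reaction gains ground, and its product is recycled through photorespiration, while many algae raise their uptake of inorganic carbon. The genes of these 2 responses, caught by word patterns as 26 tested genes, are not described here, which leaves 4839 tested genes. Counts by category include them unless a count outside them is given. What a gene does is taken from its closest Arabidopsis protein as listed in the deposited table, which is a similarity and not a measured function.

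HC 0 h libraries held 9671516 to 11367647 estimated read counts and LC 3 h libraries 9887990 to 12063878. Counts are given relative to the scaled library size (CPM, reads of a gene per 1000000 reads), and values of 3 libraries are given in the order of replicates 1, 2 and 3. Log2 changes are given ± standard error. A gene was called when its adjusted p (edgeR quasi-likelihood test, Benjamini-Hochberg over all 4865 tested genes) was under 0.05. The 3 replicates are labelled as independent cultures. The spread was wider after the shift, with a biological coefficient of variation of 9.95% at HC 0 h and 15.9% at LC 3 h. Genes without a length in the table, whose identifiers carry no annotation, took 2.59, 1.37 and 6.46% of the counts of the LC 3 h libraries against 0.557, 0.161 and 0.302% at HC 0 h.

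Within 3 h, 1076 genes were higher and 939 were lower, 22.1% and 19.3% of the genes tested and 41.4% together. With a change of at least 2-fold required, the balance was uneven: 298 genes (6.13%) rose and 46 (0.946%) fell. The 298 took 5.32, 5.33 and 5.47% of all counts at HC 0 h and 19.1, 24.0 and 27.9% at LC 3 h, a description only, since they were chosen as higher at LC 3 h in these libraries. Outside photorespiration and carbon uptake 1059 genes rose and 936 fell, 285 and 46 of them at least 2-fold. The median log2 change of all genes was 0.02. Upper-quartile scaling, which lowered that median by 0.09, gave 861 higher and 1321 lower, so that 39.5% of the calls were rises against 53.4%. The count of falls of at least 2-fold became 72 under that scaling and 87 without LC 3 h replicate 1.

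By function, rises outnumbered falls in some categories and falls outnumbered rises in others. Of 16 tested genes of C1 metabolism, 8 rose and 2 fell, and of 117 in amino acid metabolism 46 rose and 26 fell. Outside photorespiration and carbon uptake these counts were 5 rises and 1 fall of 12, and 44 rises and 26 falls of 113. Falls prevailed in carbohydrate breakdown. Of 22 glycolysis genes 12 fell and 5 rose, of 26 genes of the tricarboxylic acid cycle and organic acid conversion 15 fell and 5 rose, and of 17 genes of starch and sucrose metabolism 9 fell and 1 rose. Without the carbon uptake and photorespiration genes, 3 of 24 genes of the tricarboxylic acid cycle and organic acid conversion rose and 15 fell. In the large group of protein metabolism, 246 of 834 genes fell and 156 rose. Of the genes with no assigned function, 405 of 1890 rose and 274 fell, shares of 21.4% and 14.5% against 22.1% and 19.3% of all genes. With library 2 or 3 of LC 3 h or library 1 or 3 of HC 0 h left out, 1 gene of C1 metabolism was called lower in place of 2. Under upper-quartile scaling 417 genes with no assigned function were lower.

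**Figure D1:**
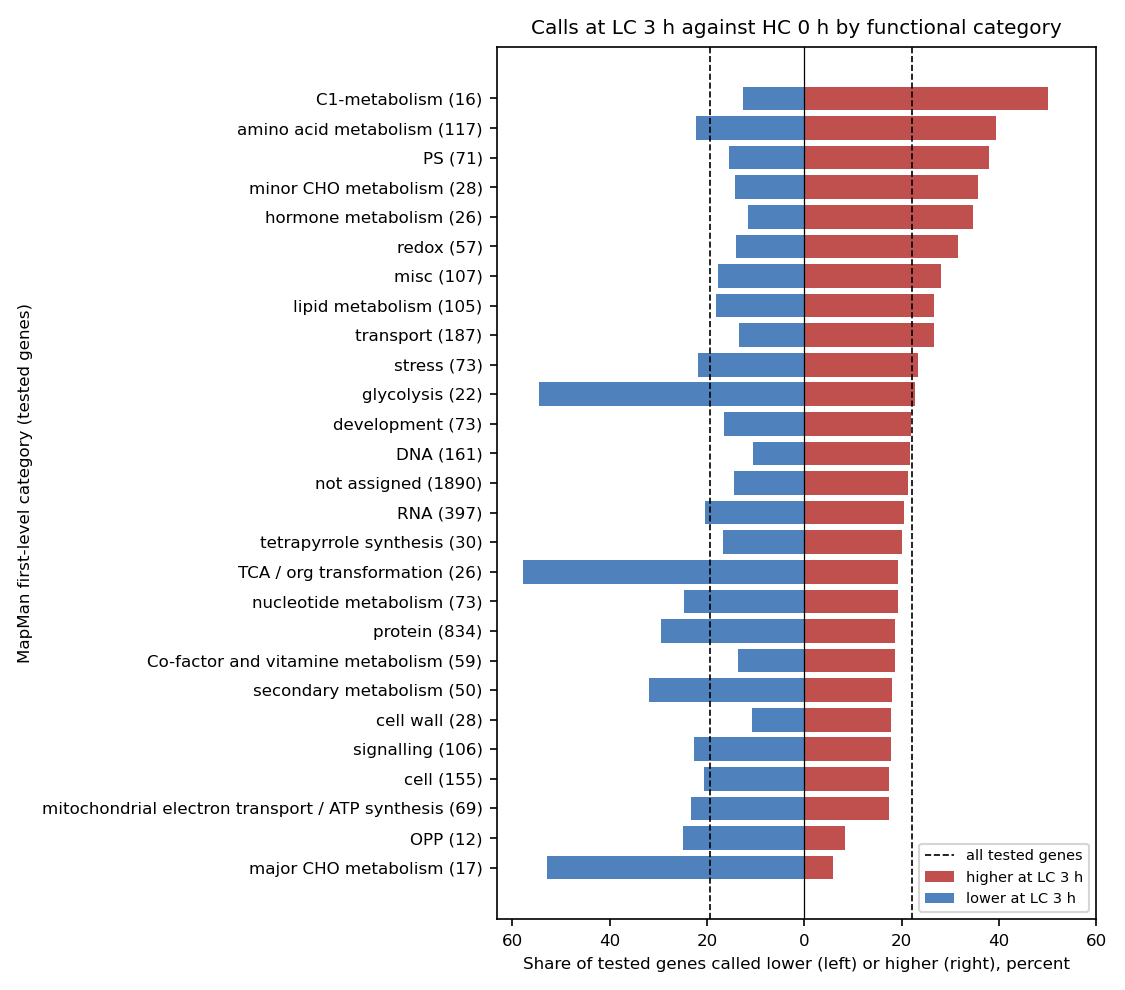
Share of the tested genes of each first-level MapMan category with at least 10 tested genes (number tested in brackets) called higher, to the right, or lower, to the left, at LC 3 h against HC 0 h. Dashed lines mark the shares over all tested genes, 22.1% and 19.3%. Among the categories drawn, C1 metabolism reaches furthest to the right with 8 of 16 genes, and the bars of glycolysis, organic acid conversion and major carbohydrates reach furthest to the left.

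The largest rise was that of CML339C, matched to YUCCA6, a flavin monooxygenase that takes part in auxin synthesis in Arabidopsis. Its libraries held 8.54, 13.4 and 12.3 CPM at HC 0 h and 3298, 4657 and 4508 CPM at LC 3 h (log2 change 8.50 ± 0.50, edgeR adjusted p = 5.49e-07). All LC 3 h libraries lay above all HC 0 h libraries. The copper amine oxidase CMI002C, of a family that oxidises amines, had 13.3, 11.7 and 8.94 CPM at HC 0 h and 268, 444 and 444 CPM at LC 3 h (log2 change 5.09 ± 0.33, edgeR adjusted p = 1.11e-06). Another gene of that family, CMT003C, rose by 1.57 ± 0.29 from 8.54, 4.37 and 4.64 CPM, and whether reads were divided between the 2 genes was not tested. Among 10 tested oxidases of this category 4 rose and 1 fell. The fall, of CMO104C at -0.31 ± 0.09, was lost with the 6 libraries alone (edgeR adjusted p = 0.0613) and with library 2 (0.0739) or library 3 (0.0717) of LC 3 h left out. The oxidase falls numbered 2 with the replicate number as a block and 3 under upper-quartile scaling.

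CMT172C, matched to a protein with an AAA-type ATPase domain and ankyrin repeats, reached the highest level of the 12 largest rises. It had 277, 419.7 and 416 CPM at HC 0 h and 9769.7, 13659.8 and 13577 CPM at LC 3 h (log2 change 5.06 ± 0.27, edgeR adjusted p = 2.80e-07). AAA-type domains use ATP to remodel other proteins. Another gene with the same kind of match, CMV015C, is on the plastid genome and rose by 1.02 ± 0.18.

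Pyruvate phosphate dikinase CMF012C, which turns pyruvate into phosphoenolpyruvate, had 51.9, 52.9 and 56.7 CPM at HC 0 h and 743, 1706 and 1667 CPM at LC 3 h (log2 change 4.67 ± 0.34, edgeR adjusted p = 1.97e-06). Replicate 1 was the lowest of the LC 3 h libraries and still above every HC 0 h library. The adenylate kinase CMT384C, of an enzyme class that balances AMP, ADP and ATP, had 88.6, 83.4 and 82.05 CPM at HC 0 h and 1336, 1916 and 1817 CPM at LC 3 h (log2 change 4.32 ± 0.20, edgeR adjusted p = 1.67e-07). Glyoxylate reductase CMJ086C, which returns glyoxylate to glycolate and so acts beside photorespiration although the word patterns did not take it, had 110.2, 124 and 118 CPM at HC 0 h and 1499, 2129 and 2099.7 CPM at LC 3 h (log2 change 4.02 ± 0.17, edgeR adjusted p = 8.18e-08). In both genes every LC 3 h library lay above every HC 0 h library.

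Haloacid dehalogenase-like hydrolases, a superfamily with many phosphatases of small molecules, gave 2 of the 12 largest rises. CMT388C had 75.5, 77.4 and 73.9 CPM at HC 0 h and 1633, 1991 and 1878 CPM at LC 3 h (log2 change 4.60 ± 0.15, edgeR adjusted p = 1.66e-08). For CMJ188C the values were 82.6, 91.9 and 70.2 CPM at HC 0 h and 1026, 1263 and 1295 CPM at LC 3 h (log2 change 3.87 ± 0.16, edgeR adjusted p = 5.42e-08). Both sets of libraries were tight within a group and did not overlap. The glyoxalase I CMP184C, whose enzyme class removes methylglyoxal, had 31.4, 36.7 and 32.97 CPM at HC 0 h and 423, 701 and 709 CPM at LC 3 h (log2 change 4.18 ± 0.25, edgeR adjusted p = 6.62e-07). CMM067C, matched only to a membrane protein, had 68.6, 72.8 and 73.6 CPM at HC 0 h and 809.99, 1275 and 1270.5 CPM at LC 3 h (log2 change 3.96 ± 0.19, edgeR adjusted p = 1.76e-07).

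In all 12 of the largest rises LC 3 h replicate 1 was the library nearest to HC 0 h, and so it was in 11 of the 12 largest falls. All 12 rises and all 12 falls were chosen to have groups that do not overlap, as 50.2% of all tested genes did.

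**Figure D2:**
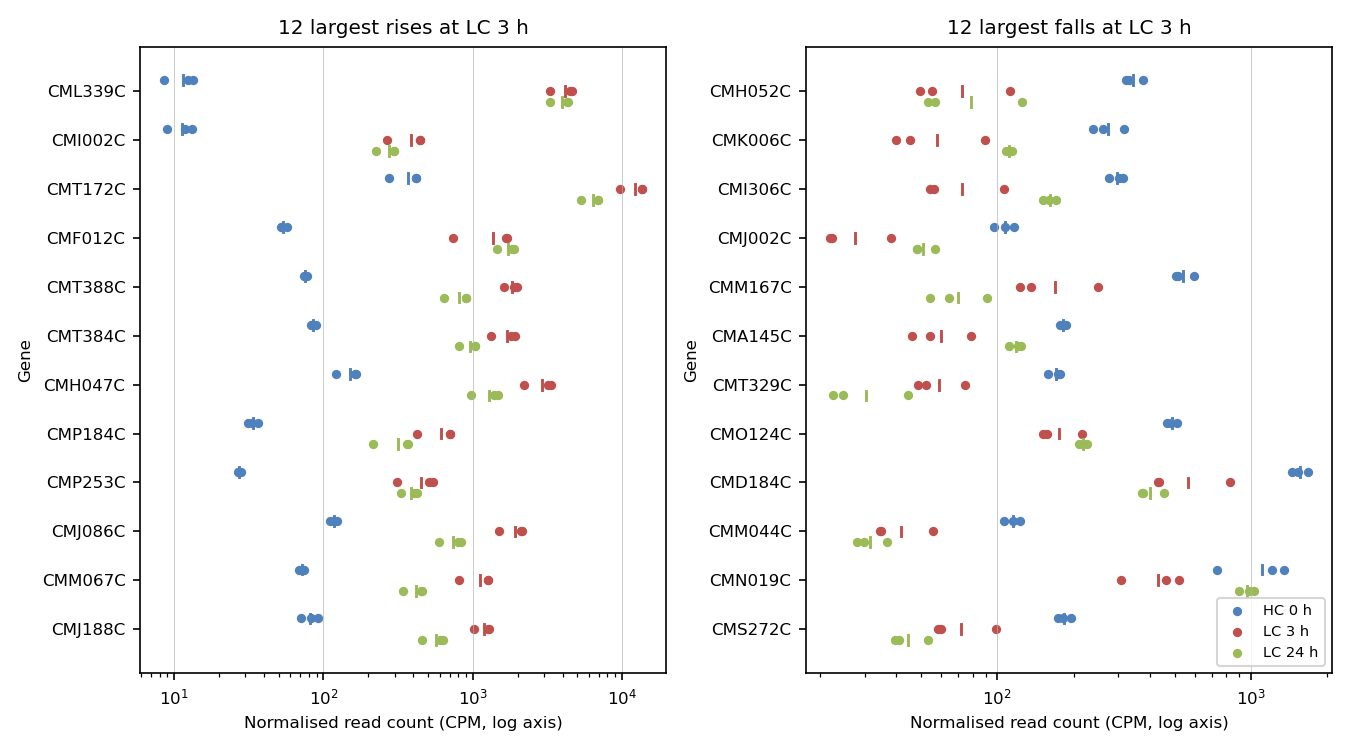
Normalised read counts (CPM, log axis) of the 12 largest rises and 12 largest falls at LC 3 h outside photorespiration and carbon uptake, by library (points) with the group mean (short line). LC 3 h points lie to the right of HC 0 h points in the left panel and to the left of them in the right panel, and the LC 3 h point nearest to HC 0 h is replicate 1 in 12 and 11 of the genes.

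The changes in C1 metabolism included its folate steps. Folates carry single-carbon units for the synthesis of purines and methionine, and S-adenosylmethionine passes methyl groups on. Outside photorespiration, 5 of 12 tested C1 genes rose and 1 fell, with a median log2 change of 0.12. The formyltetrahydrofolate synthetase CMJ099C, which loads formate onto folate, had 108, 129 and 129 CPM at HC 0 h and 1049.9, 1664 and 1662 CPM at LC 3 h (log2 change 3.58 ± 0.24, edgeR adjusted p = 1.26e-06). The bifunctional methylenetetrahydrofolate dehydrogenase and cyclohydrolase CMR167C had 232, 238 and 249 CPM at HC 0 h and 483, 694 and 686 CPM at LC 3 h (log2 change 1.38 ± 0.15, edgeR adjusted p = 3.68e-05). Both genes were higher in every LC 3 h library. The arm that leads to methionine went the other way: methylenetetrahydrofolate reductase CMT610C changed by -0.59 ± 0.08 and methionine synthase CMJ234C by -1.02 ± 0.13, and both fell. Carriers matched to the S-adenosylmethionine transporters of organelle membranes rose, CMP064C (SAMC1) with 126, 165 and 151 CPM at HC 0 h and 942, 1438 and 1568 CPM at LC 3 h (log2 change 3.16 ± 0.23, edgeR adjusted p = 1.97e-06). CMS453C (SAMC2) rose by 2.16 ± 0.15, whereas CMM334C, matched to the same Arabidopsis carrier, fell by 0.64 on the log2 scale. The S-formylglutathione hydrolase CMQ397C, of formaldehyde disposal, rose by 2.03 ± 0.19. In units per gene length (TPM), C1 metabolism took 0.209, 0.207 and 0.214% of the pool at HC 0 h and 0.715, 1.08 and 1.04% at LC 3 h, photorespiratory members included.

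Of 73 tested genes of nucleotide metabolism 14 rose and 18 fell, 19.2% and 24.7% beside 22.1% and 19.3% of all genes, and the falls numbered 29 under upper-quartile scaling. SAICAR synthetase CME023C, a step of purine synthesis, had 432, 405 and 423 CPM at HC 0 h and 4079.8, 5404 and 5377 CPM at LC 3 h (log2 change 3.56 ± 0.21, edgeR adjusted p = 5.54e-07). The LC 3 h libraries did not overlap those of HC 0 h. The large subunit of carbamoyl phosphate synthetase CMQ255C, which feeds arginine and pyrimidine synthesis, had 518, 371 and 449 CPM at HC 0 h and 1020.3, 1839 and 1767 CPM at LC 3 h (log2 change 1.79 ± 0.21, edgeR adjusted p = 7.42e-05). The falls included the uracil phosphoribosyltransferase CME192C at -0.95 ± 0.19 and the nucleoside diphosphate kinase CML110C at -0.67 ± 0.12. By group, 3 of 19 salvage genes fell (15.8%) and 1 rose. Among 16 genes of phosphotransfer and pyrophosphatases 3 fell (18.8%) and 1 rose.

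Amino acid metabolism changed in both breakdown and synthesis. Of 32 degradation genes 15 rose and 4 fell, with a median log2 change of 0.22, and of 84 synthesis genes 30 rose and 22 fell, with a median of 0.03. The difference between these shares was not tested. The hydroxypyruvate reductases CMS425C and CMQ289C, which belong to photorespiration by function although the patterns missed them, rose by 3.46 ± 0.23 and 1.53 ± 0.09. Alanine aminotransferase CMM066C, which moves amino groups between alanine and glutamate, rose by 2.12 ± 0.29. Isovaleryl-CoA dehydrogenase CMT072C, of leucine breakdown, rose by 1.68 ± 0.11. Among the falls, phosphoglycerate dehydrogenase CMC149C and phosphoserine phosphatase CMQ250C, both enzymes of the phosphorylated route to serine, changed by -1.11 ± 0.14 and -0.96 ± 0.08. Glutamate decarboxylase CMF072C fell by 0.91 and argininosuccinate lyase CMK232C by 0.87 on the log2 scale. Glutamine synthetase CMI233C, the entry of ammonium into amino acids, had 787, 971 and 959 CPM at HC 0 h and 4835, 6661 and 6731 CPM at LC 3 h (log2 change 2.75 ± 0.17, edgeR adjusted p = 8.43e-07).

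Of 32 tested genes of fatty acid synthesis and elongation 9 rose and 10 fell, 28.1% and 31.2% beside 22.1% and 19.3% of all genes. Enzymes that make and transfer malonyl units were among the rises. Acetyl-CoA carboxylase CMM188C, whose enzyme class commits acetyl-CoA to fatty acids, had 281, 252 and 302 CPM at HC 0 h and 819.7, 1887 and 1793 CPM at LC 3 h (log2 change 2.43 ± 0.27, edgeR adjusted p = 4.26e-05). Biotin carboxylase CMS299C rose by 1.13 ± 0.19, malonyl transferase CMT420C by 1.20 ± 0.15 and acetyl-CoA synthetase CMK098C by 1.79 ± 0.25. Reductases of the elongation cycle were among the falls, with enoyl-ACP reductase CMT381C at -0.71 ± 0.10 and oxoacyl-ACP reductase CMS393C at -0.73 ± 0.16. So did the plastid pyruvate kinase CMC021C at -0.91 ± 0.21. Serine palmitoyltransferase CMO139C, the entry to sphingolipids, rose by 1.45 ± 0.19.

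Several of the 12 largest falls lay in glycolysis and its branches. CMH052C, the beta chain of the phosphofructokinase that uses pyrophosphate, an enzyme that works in both directions between fructose 6-phosphate and the bisphosphate, had 376, 321 and 331 CPM at HC 0 h and 112, 49.4 and 55.2 CPM at LC 3 h (log2 change -2.24 ± 0.40, edgeR adjusted p = 0.00117). Cytosolic glucose-6-phosphate isomerase CMO124C had 467, 483 and 510.3 CPM at HC 0 h and 216, 158 and 152 CPM at LC 3 h (log2 change -1.47 ± 0.12, edgeR adjusted p = 4.09e-06). The GAPCP-type glyceraldehyde-3-phosphate dehydrogenase CMM167C had 598, 518 and 507 CPM at HC 0 h and 249.96, 136 and 123 CPM at LC 3 h (log2 change -1.67 ± 0.34, edgeR adjusted p = 0.00235). All LC 3 h libraries lay below all HC 0 h libraries, replicate 1 least so. Phosphoglycerate mutase CMK188C fell by 1.25 on the log2 scale, while CMN311C of the other mutase family rose by 2.07 ± 0.25. The bypass enzyme CMT034C, a non-phosphorylating glyceraldehyde-3-phosphate dehydrogenase, rose by 2.16 ± 0.12, and CMN085C, which sets the regulator fructose 2,6-bisphosphate, by 1.22 ± 0.15. In the MapMan group of glucose formation and the glyoxylate cycle, 3 of 5 genes rose and 0 fell: beside the dikinase, phosphoenolpyruvate carboxykinase CMN285C by 1.13 ± 0.08 and the citrate synthase CMA040C by 1.21 ± 0.11. Fructose-1,6-bisphosphatase CMD041C rose by 2.08 ± 0.23 and phosphoenolpyruvate carboxylase CME095C by 1.29 ± 0.18.

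The 4 L-lactate dehydrogenase matches, an enzyme which reduces pyruvate to lactate, all fell, and the other 3 of the 7 tested fermentation genes were not called. CMK006C had 317, 262 and 238 CPM at HC 0 h and 89.04, 45.1 and 39.7 CPM at LC 3 h (log2 change -2.23 ± 0.28, edgeR adjusted p = 1.11e-04). CMI306C, CMJ002C and CMA145C changed by -2.03, -1.96 and -1.60. Reads may have been divided among these near copies, so their separate values are uncertain. Genes of starch breakdown were among the falls too. The alpha-glucan phosphorylase CMD184C, which frees glucose 1-phosphate, had 1681, 1539 and 1456 CPM at HC 0 h and 827, 433 and 431 CPM at LC 3 h (log2 change -1.47 ± 0.24, edgeR adjusted p = 5.80e-04). Phosphoglucan water dikinase CMT547C fell by 1.07 on the log2 scale, the 4-alpha-glucanotransferase CMP352C by 1.27 and the SEX4-like glucan phosphatase CMT465C by 0.90. The starch branching enzyme CMH144C, of synthesis, fell as well, by 0.57.

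Of 12 tested genes of the pentose phosphate pathway 1 rose, 3 fell and 8 were not called. Enzymes of the oxidative arm, which yields NADPH, were among the falls. Glucose-6-phosphate dehydrogenase CMR014C had 252, 232 and 219 CPM at HC 0 h and 134, 74.03 and 70.9 CPM at LC 3 h (log2 change -1.34 ± 0.26, edgeR adjusted p = 0.00203). The 6-phosphogluconate dehydrogenases CMS195C and CML059C changed by -0.77 ± 0.10 and -0.49 ± 0.12. Transketolase CMO121C, shared by this pathway and the Calvin cycle, had 1199, 1506 and 1332 CPM at HC 0 h and 5616, 8717 and 8622 CPM at LC 3 h (log2 change 2.51 ± 0.20, edgeR adjusted p = 3.90e-06) and was the 1 riser of 12 genes. The count of risers was 2 with the replicate number as a block, with DESeq2 and without LC 3 h replicate 1, and the 3 falls became 5 under relative-log-expression scaling, upper-quartile scaling and DESeq2. Xylulose kinase CMB053C and ribitol kinase CMF097C, not counted among the 12 genes, rose by 2.84 ± 0.18 and 2.57 ± 0.17.

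At the mitochondrial entry of pyruvate the subunits diverged. Lipoamide dehydrogenase CMM299C, a subunit that pyruvate dehydrogenase shares with the glycine cleavage system, had 308, 345 and 327 CPM at HC 0 h and 1239, 2058 and 2080.0 CPM at LC 3 h (log2 change 2.46 ± 0.20, edgeR adjusted p = 4.85e-06). The E1 subunit CMS327C rose by 0.45 ± 0.11, and the E2 subunit CMN017C fell by 0.91 on the log2 scale. Pyruvate dehydrogenase kinase CMR225C, which switches the complex off, rose by 1.20 ± 0.19. NAD-dependent isocitrate dehydrogenase CMS272C had 194, 182 and 174 CPM at HC 0 h and 98.5, 59.9 and 58.1 CPM at LC 3 h (log2 change -1.34 ± 0.20, edgeR adjusted p = 3.69e-04), and fumarase CMD058C fell by 0.73. Of 10 subunits of the mitochondrial F1-ATPase 5 fell and 0 rose, by small steps such as -0.53 ± 0.13 for the beta chain CMH197C.

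**Figure D3:**
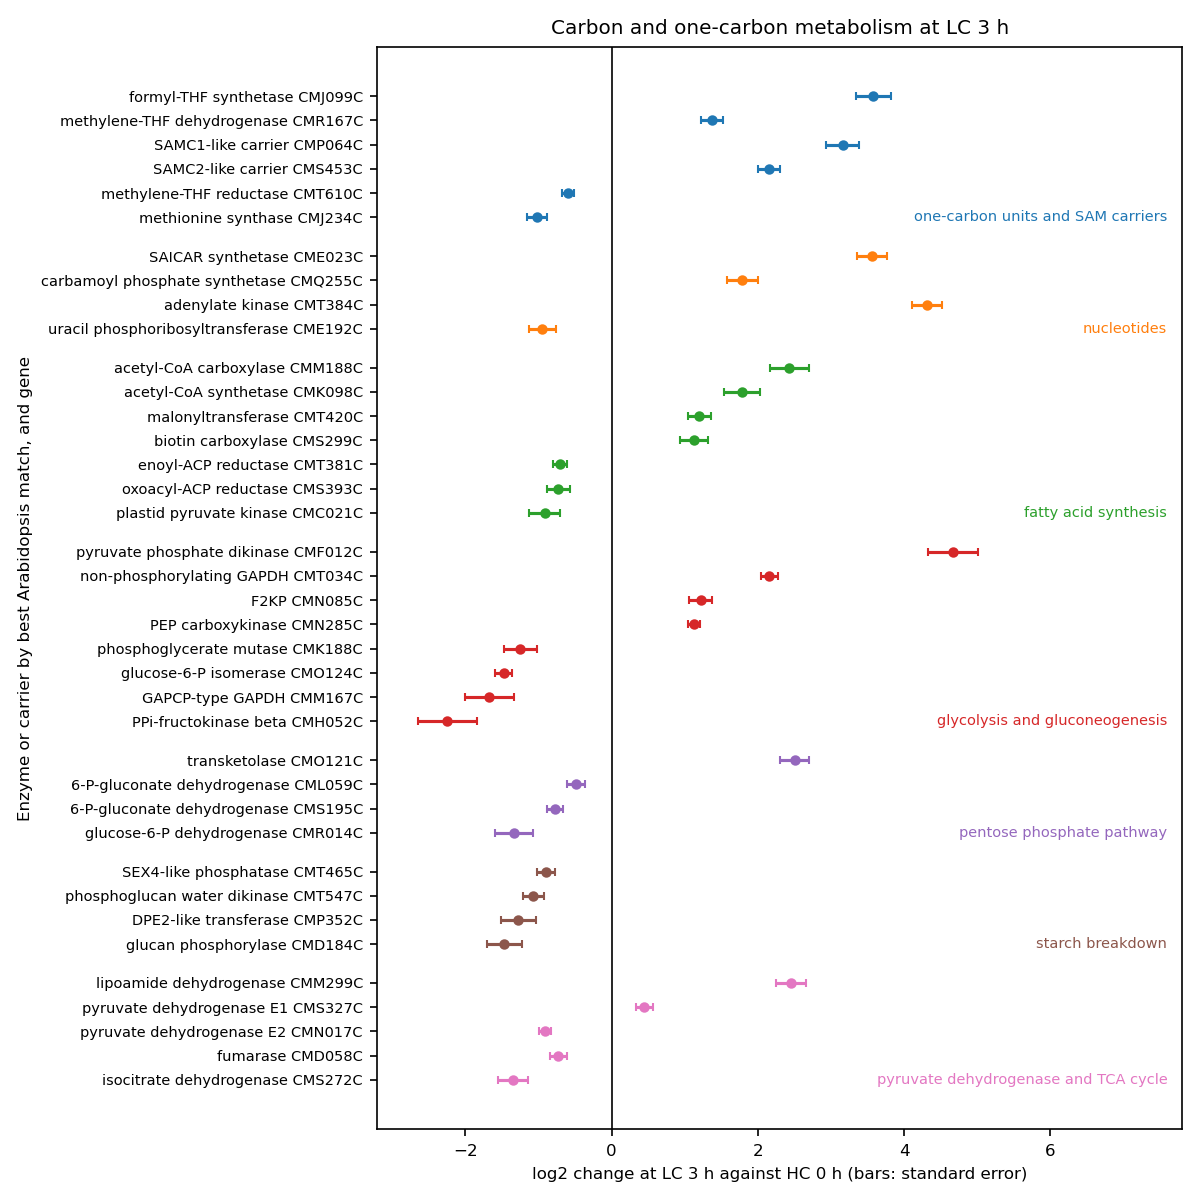
Log2 change at LC 3 h against HC 0 h (points) with its standard error (bars) for enzymes and carriers of carbon and one-carbon metabolism, grouped by pathway. Starch breakdown and the oxidative pentose phosphate enzymes lie to the left of 0, while the pyruvate phosphate dikinase CMF012C lies at 4.67 and the formyltetrahydrofolate synthetase CMJ099C at 3.58.

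Photosynthesis genes are spread over the nuclear and the plastid genome. Of 38 nuclear genes of the category outside carbon uptake and photorespiration, 8 rose and 10 fell. These shares, 21.1% and 26.3%, stand beside 22.1% and 19.3% of all genes. The median log2 change was 0.04, and the risers were 5 without LC 3 h replicate 3. Antenna and oxygen-evolving proteins were among the falls. CMN234C, matched to the light-harvesting protein LHCA2, had 3198, 3438 and 3287 CPM at HC 0 h and 2112, 1521 and 1799 CPM at LC 3 h (log2 change -0.87 ± 0.19, edgeR adjusted p = 0.00386). CMN235C changed by -0.84 ± 0.20 and CMQ142C by -0.76 ± 0.25, a call lost when library 2 (edgeR adjusted p = 0.0888) or 3 (0.0902) of HC 0 h, or library 1 (0.0595) or 2 (0.0996) of LC 3 h, was left out. PsbO, the manganese-stabilising protein CMI290C, fell by 0.74 on the log2 scale, and the IMMUTANS-like plastid oxidase CMI243C by 0.84. In contrast CMT368C, matched to a PsbP-domain protein of the thylakoid, had 30.7, 20.9 and 30.3 CPM at HC 0 h and 132, 227 and 229 CPM at LC 3 h (log2 change 2.85 ± 0.25, edgeR adjusted p = 7.89e-06). PGR5-like CMS251C, of a family in cyclic electron flow, rose by 2.04 ± 0.12, and CMF050C, matched to a methyltransferase that acts on the Rubisco large subunit, had 78.8, 76.9 and 81.7 CPM at HC 0 h and 477, 616 and 584 CPM at LC 3 h (log2 change 2.82 ± 0.10, edgeR adjusted p = 1.66e-08).

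The 28 tested photosynthesis genes of the plastid genome gave 14 rises and 1 fall, 50% and 3.57%. All 149 tested plastid genes gave 40 rises and 2 falls, 26.8% and 1.34% beside 22.1% and 19.3% of all genes. Without HC 0 h replicate 2 these rises numbered 9 and 20, and without LC 3 h replicate 3 they numbered 10 and 24. There were 0 falls when library 3 of HC 0 h or library 2 or 3 of LC 3 h was left out. Only 51 of the 149 genes had a mean log2 CPM of at least 4, and of these 17 rose and 2 fell. The D1 gene psbA, CMV047C, had 39.8, 21.2 and 34.4 CPM at HC 0 h and 172, 117 and 355 CPM at LC 3 h (log2 change 2.75 ± 0.43, edgeR adjusted p = 4.84e-04), and the CP43 gene psbC, CMV082C, had 12.3, 6.85 and 11.2 CPM at HC 0 h and 35.4, 17.1 and 69.1 CPM at LC 3 h. In both, replicate 3 was highest and replicate 2 lowest at LC 3 h, the order that the genes without a length also had, and its part in the plastid values was not tested. Plastid transcripts as a whole took 0.605, 0.511 and 0.650% of counts at HC 0 h and 0.812, 0.612 and 0.647% at LC 3 h, which overlap. The kit used selects poly(A) tails, which most plastid transcripts lack.

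CMH047C, a nuclear gene matched to CSP41B, a protein that binds chloroplast RNA in Arabidopsis, had 121, 163 and 166 CPM at HC 0 h and 2214, 3186 and 3337 CPM at LC 3 h (log2 change 4.28 ± 0.29, edgeR adjusted p = 1.11e-06). Its partner CSP41A, CML047C, had 104, 139.7 and 152 CPM at HC 0 h and 1242, 2149 and 2139 CPM at LC 3 h (log2 change 3.80 ± 0.26, edgeR adjusted p = 1.38e-06). For both genes each LC 3 h library lay above each HC 0 h library. PTAC2, CML043C, a component of the plastid transcription machinery, rose by 2.33 ± 0.15. The sigma factor CMR165C, which guides the plastid-encoded polymerase to promoters, rose by 1.65 ± 0.14.

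Among regulators, 53 of 229 tested genes of transcription control rose and 30 fell, shares of 23.1% and 13.1% beside 22.1% and 19.3% of all genes, and the falls numbered 48 under upper-quartile scaling. By family, 4 of 10 C2H2 zinc finger genes rose and 1 fell, 5 of 16 MYB genes rose and 1 fell, 3 of 12 histone deacetylases rose and 2 fell, and 14 of 46 unclassified genes rose and 5 fell. In that order the shares were 40%, 31.2%, 25% and 30.4% for rises and 10%, 6.25%, 16.7% and 10.9% for falls. The C2H2 count was 2 with library 2 or 3 of LC 3 h left out or with 6 libraries only, and the MYB count was 3 in those settings and under upper-quartile scaling and 8 without LC 3 h replicate 1. The C2H2 gene CMM141C, matched to EMB2454, had 106, 102 and 118 CPM at HC 0 h and 343, 803 and 738 CPM at LC 3 h (log2 change 2.53 ± 0.25, edgeR adjusted p = 2.13e-05). The GATA zinc finger gene CMD180C had 69.7, 87.99 and 90.7 CPM at HC 0 h and 234, 445 and 441 CPM at LC 3 h (log2 change 2.17 ± 0.29, edgeR adjusted p = 1.74e-04). Histone deacetylase CMG132C, matched to HDA14, had 198, 237 and 211 CPM at HC 0 h and 818, 1137 and 1198 CPM at LC 3 h (log2 change 2.29 ± 0.15, edgeR adjusted p = 1.11e-06). All 3 were higher in each LC 3 h library than in any HC 0 h library. CMC016C, with a MYND-type zinc finger, rose by 2.24 ± 0.20 and the MYB-domain gene CMS147C by 1.02 ± 0.09. CMM134C, weakly matched to a plant-type histone deacetylase (E-value 1e-02), fell by 1.06 and CMT115C, with a tudor and a nuclease domain, by 1.23 on the log2 scale.

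Of 93 tested genes of protein modification 26 rose and 22 fell, 28% and 23.7% beside 22.1% and 19.3% of all genes. The dual-specificity phosphatase CMN326C had 74.6, 84.2 and 97.1 CPM at HC 0 h and 358, 706 and 681 CPM at LC 3 h (log2 change 2.77 ± 0.26, edgeR adjusted p = 1.33e-05), and the regulatory subunit of phosphatase 2A CME108C rose by 2.26 ± 0.21. Kinases that rose included CMS146C, matched to STN8, which phosphorylates core proteins of photosystem II, with 131, 135 and 115 CPM at HC 0 h and 318, 338 and 299.8 CPM at LC 3 h (log2 change 1.33 ± 0.09, edgeR adjusted p = 1.58e-06). Its relative STN7, CMS463C, the kinase of antenna proteins, had 57.8, 49.2 and 60.6 CPM at HC 0 h and 27.1, 29.2 and 31.6 CPM at LC 3 h (log2 change -0.93 ± 0.09, edgeR adjusted p = 1.88e-05). STN8 was thus higher and STN7 lower in all 3 LC 3 h libraries. WNK6-like CMR183C rose by 1.18 ± 0.13 and AME3-like CMR245C by 1.44 ± 0.29. The scaffold RACK1, CMI283C, fell by 0.96. In signalling, 19 of 106 genes rose and 24 fell, 17.9% and 22.6% beside 22.1% and 19.3% of all genes. Small G proteins, which steer vesicles and nuclear transport, counted 17 falls and 9 rises of 50, with SAR1, CMT196C, at -0.72 ± 0.18. Of 15 calcium genes 4 fell and 0 rose, calnexin CMI213C by 0.84 on the log2 scale, and the falls were 2 without HC 0 h replicate 1, while 2 genes rose with the block.

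Of 187 tested membrane transport genes 50 rose and 25 fell, 26.7% and 13.4% beside 22.1% and 19.3% of all genes. Of the 184 outside carbon uptake 47 rose and 25 fell. Potassium channels gave the largest rise. CMP253C, weakly matched to the vacuolar channel KCO5 (E-value 3e-05), had 27.1, 28.2 and 26.8 CPM at HC 0 h and 313, 542 and 507 CPM at LC 3 h (log2 change 4.05 ± 0.19, edgeR adjusted p = 1.67e-07), and CMJ195C, matched to KCO1, rose by 2.19 ± 0.18. Among 31 carriers of the mitochondrial type 7 rose and 8 fell, 22.6% and 25.8%, the rises including CMQ427C at 3.07 ± 0.21. Of 36 ABC transporters 9 rose and 2 fell, 25% and 5.56%, with the mitochondrial exporter ATM3, CMN105C, at 2.30 ± 0.32. The 2 falls became 6 under upper-quartile scaling, 4 with the block, and 1 with library 1 or 3 of HC 0 h or library 2 or 3 of LC 3 h left out. Of 21 genes for unspecified cations 7 rose and 2 fell, and 1 fell with any HC 0 h library or library 2 of LC 3 h left out or with 6 libraries only. Genes sharing the best match PHT6, a phosphate transporter, went in opposite directions. CMN019C had 737, 1213 and 1356 CPM at HC 0 h and 307, 463 and 522 CPM at LC 3 h (log2 change -1.36 ± 0.24, edgeR adjusted p = 9.52e-04), whereas CMT284C rose by 2.39 ± 0.34 and CMT333C by 1.14 ± 0.23.

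Redox genes showed 18 rises and 8 falls of 57, 31.6% and 14% beside 22.1% and 19.3% of all genes. Their median log2 change was -0.004 beside 0.02 for all genes. Outside photorespiration and carbon uptake 16 of 53 rose and 7 fell. The falls among the 57 numbered 14 under upper-quartile scaling, 13 with the block and 13 without LC 3 h replicate 1. Of 15 thioredoxin genes 5 rose and 3 fell, 33.3% and 20%, with 5 falls without LC 3 h replicate 1. Peroxiredoxin Q CMS311C, which removes peroxide in plastids, had 297, 381 and 369.8 CPM at HC 0 h and 1574, 1889 and 2031 CPM at LC 3 h (log2 change 2.39 ± 0.18, edgeR adjusted p = 2.21e-06). Thylakoid ascorbate peroxidase CMM158C had 3451, 3318 and 3401 CPM at HC 0 h and 7193, 8598 and 8526 CPM at LC 3 h (log2 change 1.26 ± 0.16, edgeR adjusted p = 1.16e-04). Monodehydroascorbate reductase CMT414C, which restores ascorbate, rose by 1.30 ± 0.10, and the atypical thioredoxin CMT037C by 1.26 ± 0.11. The ferredoxin-thioredoxin reductase subunit CMP058C fell by 0.92. Redox genes together held 2.23, 2.26 and 2.26% of TPM at HC 0 h and 3.18, 3.42 and 3.46% at LC 3 h, without overlap. The shares of most other first-level categories did not overlap between these groups either.

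Of 73 stress genes 17 rose and 16 fell, 23.3% and 21.9% beside 22.1% and 19.3% of all genes. Of 38 heat stress genes 9 rose and 10 fell, 23.7% and 26.3%. Of 39 protein folding genes 7 rose and 15 fell, 17.9% and 38.5%. HSP90, CMQ224C, had 4448, 3278 and 3135 CPM at HC 0 h and 1904, 1373 and 1355 CPM at LC 3 h (log2 change -1.23 ± 0.21, edgeR adjusted p = 7.93e-04). The mitochondrial HSP70 CML205C fell by 0.71 on the log2 scale and the co-chaperonin CMF129C by 1.30. The plastid disaggregase CLPB3, CMI251C, rose by 0.75 ± 0.15 and the co-chaperone CMI136C, matched to P58IPK, by 1.07 ± 0.14. CMN082C, matched to RSH3, of the family that makes and breaks the alarmone ppGpp, rose by 1.16 ± 0.12. CMS301C, matched to a wound-responsive protein, rose by 1.82 ± 0.09.

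Of 285 tested genes of protein synthesis 121 fell and 28 rose, with a median log2 change of -0.21 beside 0.02 for all genes. Of 39 initiation factors 20 fell and 5 rose, the gamma subunit of eIF2, CMP304C, by 0.68. The elongation factor 1-beta gene CME120C had 272, 271 and 263 CPM at HC 0 h and 129, 108 and 117 CPM at LC 3 h (log2 change -1.19 ± 0.11, edgeR adjusted p = 1.15e-05). The pseudouridine synthase CMM044C, matched to CBF5, which modifies ribosomal RNA, had 116, 106 and 123 CPM at HC 0 h and 55.7, 34.5 and 34.9 CPM at LC 3 h (log2 change -1.46 ± 0.18, edgeR adjusted p = 1.07e-04). Falls in both genes were seen in every LC 3 h library. Of 55 genes of amino acid activation, which hold aminoacyl-tRNA synthetases and 10 pseudouridylate synthases, 20 fell and 9 rose, the rises being 15 without LC 3 h replicate 1. RNA polymerase and general transcription genes counted 17 falls and 7 rises of 42. The falls were 9 with library 1 of HC 0 h or library 3 of LC 3 h left out and 10 with library 2 of LC 3 h left out, and the rises were 4 with library 2 of HC 0 h or library 3 of LC 3 h left out. Protein glycosylation gave 7 falls and 0 rises of 11, such as the dolichyl transferase CMK108C at -0.71 ± 0.10. That count was 4 with library 2 of HC 0 h or library 2 or 3 of LC 3 h left out. Nuclear import gave 5 falls and 0 rises of 12, with importin alpha CMT096C at -0.64 ± 0.09. All protein genes together held 22.2, 21.6 and 22.1% of TPM at HC 0 h and 18.9, 17.5 and 17.9% at LC 3 h.

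In protein breakdown 69 of 241 genes rose and 34 fell, 28.6% and 14.1% beside 22.1% and 19.3% of all genes. The proteasome genes among them went the other way, with 5 rises and 13 falls of 37, 13.5% and 35.1%. Of 36 RING-type ubiquitin ligases, which mark proteins for the proteasome, 15 rose and 2 fell, 41.7% and 5.56%. The rises were 9 without LC 3 h replicate 3 and 9 under upper-quartile scaling, which also gave 4 falls among these ligases. CMM036C rose most of them, by 2.21 ± 0.20. Metalloproteases rose in 6 of 14 cases, among them the presequence protease CMQ222C at 1.23 ± 0.13. The peroxisomal import genes PEX5, CMK124C, and PEX6, CML252C, rose by 2.15 ± 0.17 and 2.42 ± 0.35.

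**Figure D4:**
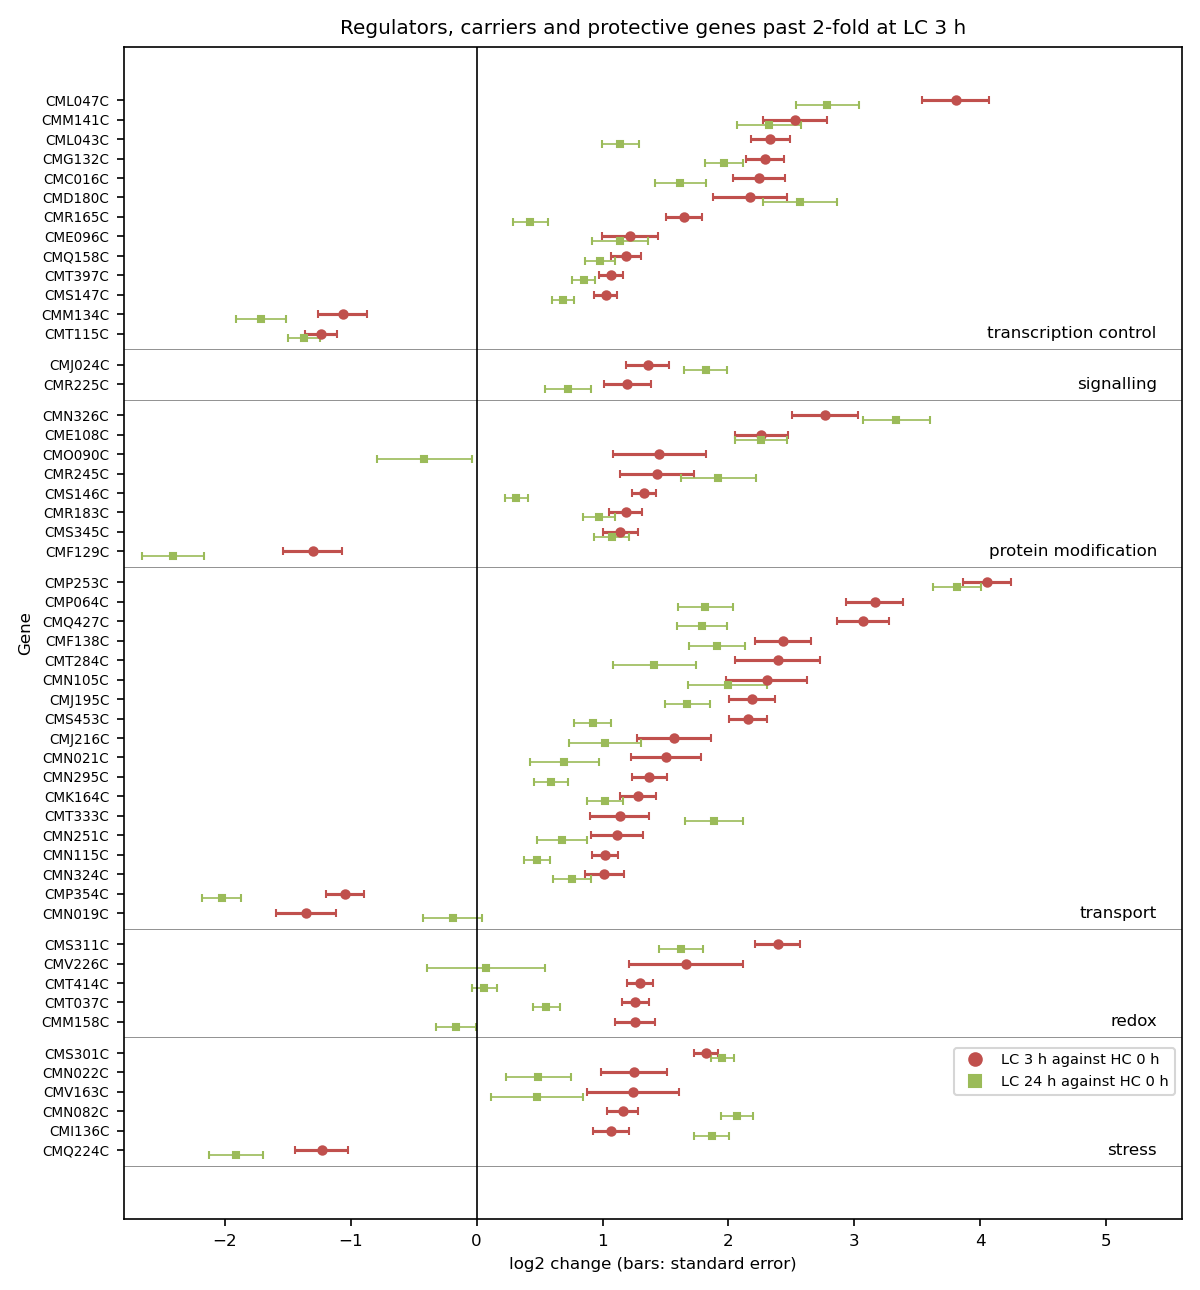
Log2 change at LC 3 h (circles) and at LC 24 h (squares), each against HC 0 h with its standard error, of the genes of transcription control, signalling, protein modification, transport, redox and stress that changed at least 2-fold at LC 3 h. Both contrasts use the same HC 0 h libraries. Most circles lie to the right of 0, with CMP253C at 4.05 and CML047C at 3.80.

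Genes with no described function held some of the largest changes. Of those with an annotated locus, CMT050C had 29.3, 26.8 and 29.5 CPM at HC 0 h and 183, 335 and 338 CPM at LC 3 h (log2 change 3.32 ± 0.21, edgeR adjusted p = 8.03e-07), CMH133C rose by 3.25 ± 0.25 and CMQ390C by 3.19 ± 0.21, and these 3 were chosen after their values were seen. CMR182C had 739, 761 and 587 CPM at HC 0 h and 336, 115 and 122 CPM at LC 3 h (log2 change -1.87 ± 0.47, edgeR adjusted p = 0.00852). CMT538C fell by 1.47 and CMP092C by 1.39 on the log2 scale. By the rule for undescribed genes the 4 largest rises were of identifiers without a length, at 3.63 to 3.80. All 10 tested genes of that kind rose at least 2-fold. In EPlCMEG00000000001 the libraries held 1775, 390.3 and 899 CPM at HC 0 h and 9123, 5107 and 24912 CPM at LC 3 h, with replicate 3 highest.

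The 3 h level was not the 24 h level for many of these genes. The test of LC 24 h against LC 3 h shares the LC 3 h libraries with the comparison above, and 53.2% of all genes were called in it, with a median log2 difference of -0.05. Against HC 0 h, 63% of all genes were called at LC 24 h. CML339C stayed at 3312, 4373 and 4262 CPM at LC 24 h, a log2 difference from LC 3 h of -0.06 ± 0.36, and CMF012C at 1446, 1902 and 1846 CPM (0.34 ± 0.29), and neither difference passed the test. CMP253C, with 329, 420.4 and 407 CPM, did not pass it either (-0.24 ± 0.17). CME023C had come down to 1392, 1951 and 1989 CPM (-1.48 ± 0.19, edgeR adjusted p = 1.48e-04). CMI233C had done so to 1803, 2330.4 and 2295 CPM (-1.50 ± 0.16, edgeR adjusted p = 4.76e-05). Lipoamide dehydrogenase CMM299C stood at 397, 562 and 557 CPM (-1.83 ± 0.20, edgeR adjusted p = 4.53e-05), and ascorbate peroxidase CMM158C at 2424, 3279 and 3390.0 CPM (-1.42 ± 0.16, edgeR adjusted p = 6.01e-05). Each LC 24 h library of these 4 lay below each LC 3 h library. Lactate dehydrogenase CMI306C had partly returned, to 171, 152 and 160.2 CPM (1.15 ± 0.22, edgeR adjusted p = 0.00158), and CMN019C stood at 896, 979 and 1025 CPM (1.17 ± 0.24, edgeR adjusted p = 0.00202). The GAPCP-type dehydrogenase CMM167C was lower still, at 90.97, 64.3 and 54.2 CPM (-1.28 ± 0.33, edgeR adjusted p = 0.00857). RSH3-like CMN082C rose further, by 0.91 ± 0.12.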

How the data were processed

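The 12 RNA-seq libraries form 4 groups of 3: HC 0 h, LC 3 h, LC 24 h and the recovery HC 24 h. Per the labels' protocols, libraries were made with the TruSeq RNA Sample Prep Kit v2, which does not mark strand, so reads of overlapping or antisense genes cannot be told apart. The authors deposited 1 table with estimated read counts and TPM values (reads per gene length, scaled to 1000000 in a library) for each library, per the file headers. That table also holds the authors' log2 fold changes and q-values against HC 0 h, which were used only for 1 count given with the effects of the processing. CASAVA 1.8, Bowtie2, RSEM and edgeR are named by the submitters' processing notes without roles, and a genome build or annotation is not given in the sources used here.

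From these files, the expected counts were rounded (94.0% were whole as deposited) and tested with edgeR 4.0.16 in R 4.3.3: trimmed-mean scaling, the default expression filter, which kept 4865 of 4970 genes, and a robust quasi-likelihood test in 1 fit of 12 libraries and 4 groups. Each standard error was obtained from the log2 change and its F value. CPM values use the scaled library sizes. The procedure was tested on simulated data with the same spread in all groups, independent libraries and far fewer changed genes than were called here. That setting is simpler than these data, so it checks the code and not the error rate here. Within HC 0 h and within LC 3 h, the groups compared in this way, no 2 replicate libraries differed by as little as sampling noise.

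MapMan categories and best Arabidopsis matches come from the deposited table, and 274 described matches had an E-value above 1e-05. RefSeq's gene list for assembly ASM9120v1, used only for names and gene order, held 4738 of the identifiers. Genes of photorespiration and carbon uptake were set aside by word patterns. Genes named were the 12 largest rises and falls with non-overlapping groups and a mean log2 CPM of at least 4, the 3 largest of each described category in each direction, the at least 2-fold members of the regulatory, transport, redox and stress categories, and the 4 largest rises and falls without described function. Categories described were the 8 with the largest shares of rises and the 8 with the largest shares of falls among those with at least 10 tested genes, together with transcription control, signalling, transport, redox, stress and protein modification. First- and second-level categories were added after the data were seen, and the largest rises and falls of some first-level categories were named with them. Further genes were named after their values were seen. Members and lists were chosen with earlier results of these data known.

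Same-numbered replicates are the same cultures sampled in turn, as far as the labels' protocols tell. Their deviations from the group means correlated at r = 0.456, 0.243 and 0.389 between HC 0 h and LC 3 h. Between replicates of unlike number r ranged from -0.559 to 0.435. The reported test did not pair the samples, and the replicate number entered as a block only among the alternatives. The alternatives tried were upper-quartile and relative-log-expression scaling, other filters, DESeq2 1.42.0, 6 libraries only, the replicate block, omission of genes without a length, and omission of each replicate.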

Additional observations from a re-analysis of the deposited data

Results flagged for a closer look

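Of 306 genes that met the naming rules or were added to them, part of which the text names, 8 were called in opposite directions at LC 3 h and at LC 24 h against HC 0 h, and for each the direct test of LC 24 h against LC 3 h was passed. Both contrasts use the same HC 0 h libraries. With 3 libraries a group, no check for outlying libraries was made. All 306 genes were called at LC 3 h, and the share of such reversals over all tested genes was not counted. The calls of LC 24 h against HC 0 h were not checked under the alternatives.

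The antenna gene CMN234C (LHCA2) had 3198, 3438 and 3287 CPM at HC 0 h, 2112, 1521 and 1799 at LC 3 h and 4918, 4577 and 4313 at LC 24 h. It was lower at LC 3 h, higher at LC 24 h (0.48 ± 0.19 against HC 0 h), and differed between the 2 times by 1.35 ± 0.19, edgeR adjusted p = 2.55e-04. CMQ426C, matched to DNA polymerase lambda, went the same way, from -0.97 ± 0.09 at LC 3 h to 0.78 ± 0.09 at LC 24 h, a difference of 1.76 ± 0.09, edgeR adjusted p = 1.36e-06.

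The other 6 were higher at LC 3 h and lower at LC 24 h than at HC 0 h. The sorbitol dehydrogenase CMR237C had 304, 346 and 370.4 CPM at HC 0 h, 566, 902 and 971 at LC 3 h and 177, 235 and 243 at LC 24 h, a difference between the times of -1.90 ± 0.20, edgeR adjusted p = 3.97e-05. The thioredoxin CMJ096C differed by -1.58 ± 0.17, edgeR adjusted p = 4.04e-05 and the RNA-binding export factor CMH135C by -1.21 ± 0.17, edgeR adjusted p = 2.54e-04. Pyruvate dehydrogenase E1 CMS327C differed by -1.03 ± 0.12, edgeR adjusted p = 5.67e-05. Chromatin remodellers gave the 2 smallest differences, CMJ200C (DDM1) with -0.68 ± 0.06, edgeR adjusted p = 1.18e-05 and CMO092C (CHR8) with -0.37 ± 0.06, edgeR adjusted p = 4.92e-04. The rise of CMO092C at LC 3 h, 0.21 ± 0.06, was lost under upper-quartile scaling (edgeR adjusted p = 0.110), with 6 libraries only (0.0675), without HC 0 h replicate 3 (0.0647) and without LC 3 h replicate 3 (0.0596).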

How the results depend on the processing

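The count of genes at least 2-fold lower was 46 in the reported test, 72 under upper-quartile scaling and 38 to 87 when 1 replicate was left out, the highest without LC 3 h replicate 1. Over all alternatives run, 861 to 1272 genes were higher, 743 to 1321 lower and 262 to 345 at least 2-fold higher. With the replicate block 1269 genes were higher and 1131 lower, 301 and 53 of them at least 2-fold; the block ended no LC 3 h call of the genes named and moved no count of the report by over 1.5 times other than those given there. Of 306 genes that met the naming rules or were added to them, 275 were called at LC 3 h in all 14 alternatives and 31 were lost in at least 1, most often without LC 3 h replicate 3 (26) or LC 3 h replicate 2 (23), and no value changed sign. Of their LC 24 h against LC 3 h calls, 47 of 200 were lost in at least 1 setting, 1 of them under the replicate block. Of 429 recomputed category medians 50 moved by more than the spread over LC 3 h libraries, 22 of them under upper-quartile scaling. The authors' deposited table gives 652 genes a q-value under 0.05, of which 647 were called here.

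Rises outnumbered falls among the at least 2-fold changes under every setting run, while the balance of all calls depended on the scaling. The 3 cultures limit what small changes can be detected, and the wider spread at LC 3 h falls on every comparison made here. No culture was held at high CO2 for 3 h, genes without described function cannot be placed in a category, and poly(A) selection bears on every plastid value.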

Other observations

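Some large rises lay in functions not described above. CMJ097C and CMT081C are matched to plastid-lipid-associated fibrillins, proteins of lipid droplets and thylakoid margins in plants. CMJ097C had 65.3, 73.9 and 70.6 CPM at HC 0 h and 292, 468 and 435 CPM at LC 3 h (log2 change 2.51 ± 0.16, edgeR adjusted p = 8.13e-07), with every LC 3 h library above every HC 0 h library, and CMT081C rose by 1.08 ± 0.13. The actin gene CMM237C had 28.96, 51.1 and 47.4 CPM at HC 0 h and 111, 176 and 165 CPM at LC 3 h (log2 change 1.83 ± 0.29, edgeR adjusted p = 5.93e-04) and stood at 68.02, 37.5 and 37.5 CPM at LC 24 h, a log2 difference from LC 3 h of -1.66 ± 0.29, edgeR adjusted p = 8.92e-04. Of 11 acid and other phosphatases 6 rose and 2 fell, with a median log2 change of 0.69 beside 0.02 for all genes. Sulfite oxidase CMR126C, which detoxifies sulfite, rose by 1.02 ± 0.08. Among genes of DNA handling, CMA023C, weakly matched to a telomere-repeat-binding-like protein, had 268, 276 and 285 CPM at HC 0 h and 702, 1026 and 999 CPM at LC 3 h (log2 change 1.72 ± 0.15, edgeR adjusted p = 7.20e-06). CML010C and CMR274C, both matched to SPO11-2 with the same E-value, rose by 1.50 ± 0.15 and 1.46 ± 0.12. Reads may have been divided between them.

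Some genes that rose at least 2-fold had a neighbour that did so. Of 257 such genes placed by gene order in the RefSeq table, 52 (20.2%) lay next to another of them, and of the 4432 other genes 444 (10.0%) lay next to 1. CMI004C, CMT006C and CMJ098C were named after their values were seen. These shares are a description, and neighbours may share reads where they overlap. Both copper amine oxidase genes that rose lie beside a gene matched to the anion exchanger BOR4: CMI002C rose by 5.09 ± 0.33 and its neighbour CMI004C by 2.10 ± 0.16, and CMT003C rose by 1.57 ± 0.29 and its neighbour CMT006C by 2.06 ± 0.17. The BOR4 matches of CMI004C and CMT006C have the same E-value, so their separate values are uncertain. The fibrillin gene CMJ097C, the next gene CMJ098C at 1.34 ± 0.10 and the formyltetrahydrofolate synthetase CMJ099C form a run of 3. The alanine aminotransferase CMM066C lies beside the membrane protein gene CMM067C, and the kinase gene CMS146C (STN8) beside the MYB-domain gene CMS147C.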
